A study of Mus musculus with 2 samples.

Results

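The genes described here are 31 genes of cholesterol synthesis, of its control, of uptake and intracellular transport, and of storage as ester, chosen by gene symbol from the annotation of the array. Of these, 28 were matched to probe sets, groups of short oligonucleotides that read 1 transcript, and all 28 were measured. They were read by 61 of the 45101 probe sets, 53 of which were measured, and they stand among 12290 measured genes. The other 3 members, Acat2, Soat1 and Soat2, were not matched to a probe set and were not analysed here, so storage of cholesterol ester in liver was not read, and of esterification only Lcat, a secreted plasma enzyme, was measured. Liver RNA was compared between control mice, which were Lpcat3fl/fl and lacked Cre, and mice that were Lpcat3fl/fl with Albumin-Cre, called L-Lpcat3 KO, on Affymetrix mouse arrays, with 1 array per genotype. The RNA on an array was a pool of 5 male mice that were 16 weeks old, had eaten western diet for 9 weeks, starting when 7 weeks old, and had fasted for 6 hr. The floxed allele came from C57BL/6N embryonic stem cells and was bred with C57BL/6 mice. Both genotypes therefore share the floxed allele, the diet and the fast, and differ in the Cre transgene. That transgene is driven by the albumin promoter. The study names Kupffer and endothelial cells, which do not express the transgene, as the likely source of residual Lpcat3 mRNA in liver. Control mice carrying Cre alone were not analysed here. A pool is a single sample. No test between genotypes was possible, values lack any check by replicates, and having 1 array per genotype limits the precision.

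Signals are given as deposited, as MAS5 intensities on a linear scale in arbitrary units. The median over both arrays, 86.6, served as background level, and a gene counted as measured when its brightest probe set reached that level on at least 1 array. Differences are given as log2 ratios, L-Lpcat3 KO over control, so that 1 is a 2-fold higher and -1 a 2-fold lower signal. Among the probe sets of the same gene these ratios had a pooled SD of 0.29 over 4476 genes, which is used below as the only available measure of error and leaves out the spread between mice. Lpcat3 itself gave a signal of 5173 in the control pool and 2198 in the L-Lpcat3 KO pool, for a log2 ratio of -1.23 on its single measured probe set, whose place relative to the deleted exon was not stated in the sources read here. The 11 measured hepatocyte markers were above the background level on both arrays, the dimmest (Ass1) at 311 and 268, and 9 of the 11 had a log2 ratio below 0 (median -0.20).

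Cholesterol is built from acetyl-CoA in a long chain of reactions: the first arm makes isoprenoid units and joins them to farnesyl pyrophosphate, and the sterol arm joins these to squalene, closes the rings and trims the product to cholesterol. The chain is switched as a block by SREBP transcription factors, which Scap carries from the endoplasmic reticulum to the Golgi for cleavage unless sterols make it bind an Insig protein. Hepatocytes also take cholesterol up from lipoproteins, pass it through lysosomes, store it as ester, secrete it in VLDL and turn it into bile acids. SREBP proteins act at sterol regulatory elements, usually together with NF-Y and Sp1.

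These elements can be looked for in the promoters of the genes. Of the 28 measured genes, 22 had a window in the RefSeq promoter table (GRCm38.p6), all but Fdps, Fdft1, Sqle, Scarb1, Npc1 and Stard4. Of each window the 250 bases before the most upstream listed start were searched on both strands for TCACNCCAC (a form of the sterol regulatory element), CCAAT (the NF-Y motif) and GGGCGG (the Sp1 motif). The 3 windows shown belong to Hmgcs1, which holds the whole set, to Insig1, which feeds back on the pathway, and to Dhcr7, the last enzyme of the chain; capitals mark motif matches on either strand, and no match overlapped another in these windows. They lie on the plus strand at chr13:119690101-119690350, chr5:28071162-28071411 and chr7:143822917-143823166.
Hmgcs1: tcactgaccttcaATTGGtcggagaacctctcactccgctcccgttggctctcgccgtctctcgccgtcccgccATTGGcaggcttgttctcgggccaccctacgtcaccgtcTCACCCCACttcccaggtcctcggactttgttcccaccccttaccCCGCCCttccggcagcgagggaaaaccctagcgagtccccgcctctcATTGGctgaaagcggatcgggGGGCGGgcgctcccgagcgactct
Insig1: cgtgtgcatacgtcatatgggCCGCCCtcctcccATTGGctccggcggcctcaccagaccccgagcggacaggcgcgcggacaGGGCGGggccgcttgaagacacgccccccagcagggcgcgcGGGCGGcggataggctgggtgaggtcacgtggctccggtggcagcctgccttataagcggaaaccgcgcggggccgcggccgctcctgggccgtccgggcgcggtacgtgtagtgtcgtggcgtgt
Dhcr7: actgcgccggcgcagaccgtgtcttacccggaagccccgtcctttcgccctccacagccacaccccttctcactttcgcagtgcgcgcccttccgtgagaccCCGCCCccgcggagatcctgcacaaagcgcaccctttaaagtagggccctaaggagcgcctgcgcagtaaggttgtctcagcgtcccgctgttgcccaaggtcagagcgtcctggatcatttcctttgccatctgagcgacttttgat

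TCACNCCAC was found in 1 of the 22 windows, that of Hmgcs1, where it lay 137 to 129 bases before the start, and in 1.03% of the 27025 windows of the table. CCAAT was found in 19 of the 22 (86.4%), against 34.5% of all windows and 36.5% of the 17491 windows of protein-coding genes. GGGCGG was found in 18 of the 22 (81.8%), against 33.0% of all and 42.7% of protein-coding windows. Both CCAAT and GGGCGG stood in 12 of the 14 synthesis windows, in 4 of the 8 other windows and in 15.3% of protein-coding windows. The exceptions among synthesis genes were Pmvk, without GGGCGG, and Dhcr7, without CCAAT in the window shown. Mvk held the most CCAAT matches, 5. Counting any listed start of a gene instead gave CCAAT in 20 and GGGCGG in 20 of the 22 genes, against 37.5% and 35.4% of all genes. A match is a string of letters in a window, not a shown binding site, and the arrays do not measure binding.

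**Figure D1:**
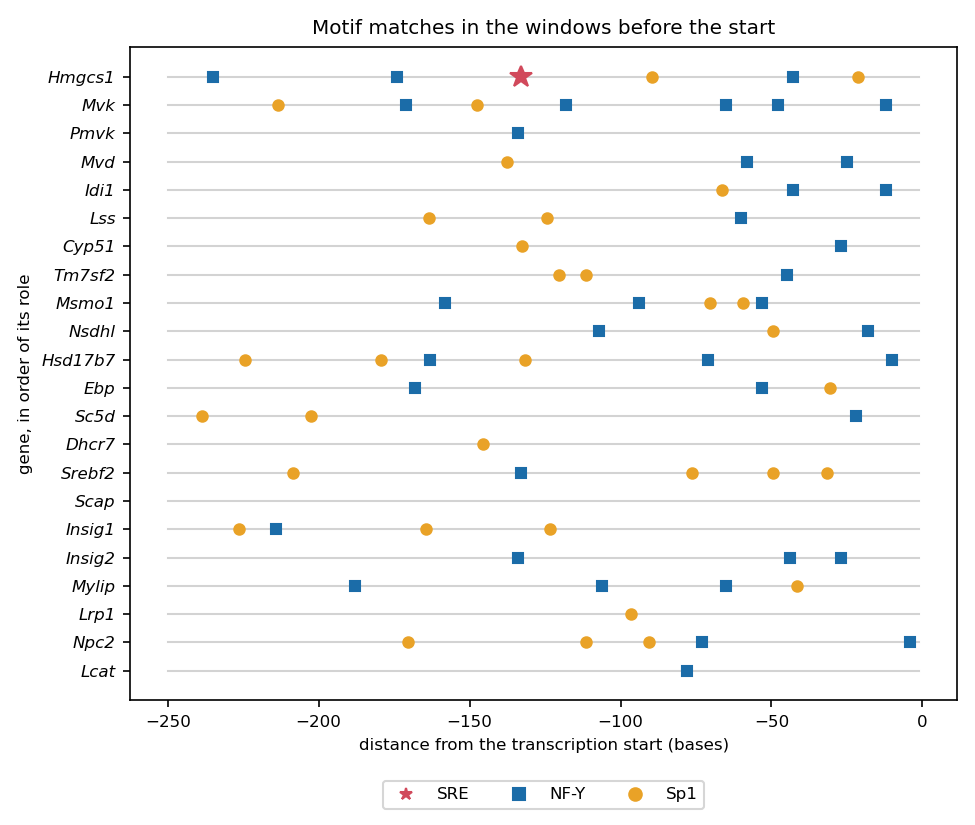
Each grey line is the window of 250 bases before the most upstream start of 1 measured gene, with the distance from the start in bases on the x axis; stars, squares and circles mark matches to the SRE (TCACNCCAC), NF-Y (CCAAT) and Sp1 (GGGCGG) motifs at their centres. The single SRE match is in Hmgcs1, and squares appear on 19 of the 22 lines.

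Of the 28 measured genes, 3 were higher by 2-fold or more on the L-Lpcat3 KO array and 0 were lower by 2-fold or more, where 2.70% of all measured genes were higher and 0.700% lower by that much. All 3 (Sqle, Fdps and Dhcr7) were synthesis enzymes. At 1.5-fold, 6 were higher, the same 3 with Msmo1, Hmgcs1 and Insig1, against 9.07% of all measured genes, and 0 were lower against 3.83%. All 28 were above background on both arrays, and of the 10973 genes for which this held 2.45% were higher by 2-fold and 8.23% by 1.5-fold. The median log2 ratio was 0.47 over the 17 measured synthesis genes, -0.02 over the 11 others and 0.01 over all measured genes. In synthesis 14 of 17 genes lay above 0 (82.4%, against 51.2% of all measured genes), and 12 exceeded the probe set SD of 0.29, as 22.0% of all measured genes did. Outside synthesis 5 of 11 lay above 0. Mvk, Srebf2 and Lcat were the 3 genes lower by more than that SD, as 15.5% of all measured genes were. Sqle, Fdps and Hmgcs1 are genes that the study itself displayed from these arrays, so their direction is not independent evidence. Without them the synthesis median was 0.37, 11 of 14 genes lay above 0 and 1 of 14 was at least 2-fold higher. These 14 genes come from the same pools and were chosen with earlier results of these data known. They are no independent evidence either.

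**Figure D2:**
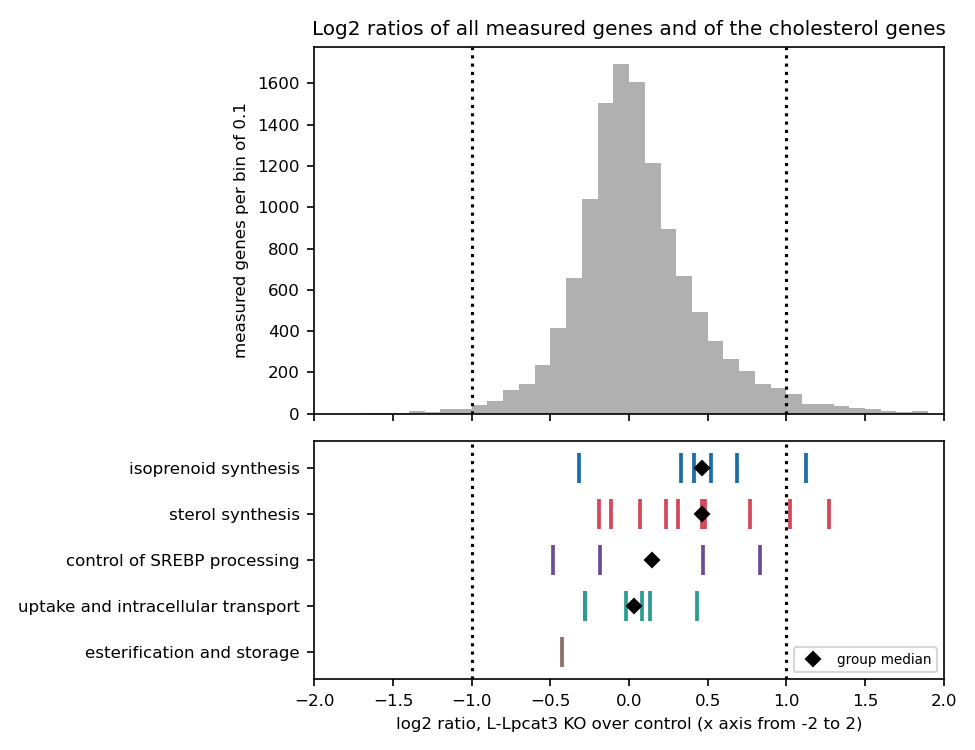
The upper panel counts all measured genes by log2 ratio (L-Lpcat3 KO over control) in bins of 0.1, with the axis cropped at -2 and 2; the lower panel gives each measured cholesterol gene as a bar and the median of its role group as a diamond, and dotted lines mark 2-fold. The isoprenoid and sterol groups both have their median at 0.47, and uptake and transport is centred at 0.03.

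In the isoprenoid arm 5 of 6 measured genes were above 0, with a median log2 ratio of 0.47. Hmgcs1, the cytosolic synthase that makes HMG-CoA, gave a signal of 5739 in the control pool and 9253 in the L-Lpcat3 KO pool, for a log2 ratio of 0.69. Over 4 measured probe sets its ratios spanned 0.48 to 0.89, so each of them was higher in the L-Lpcat3 KO pool. Mvk, the kinase that phosphorylates mevalonate, gave a signal of 280 in the control pool and 225 in the L-Lpcat3 KO pool, for a log2 ratio of -0.32. It was the lowest of the synthesis genes, and its other probe set, at 107 in control and below background in L-Lpcat3 KO liver, gave -0.31 or lower. Pmvk, which adds the next phosphate, gave 724 and 1041, for a log2 ratio of 0.52. Mvd, which decarboxylates the product to isopentenyl pyrophosphate, gave 197 and 261, for a log2 ratio of 0.41, and its dimmer probe set had 98.7 and 202, a ratio of 1.03. The 2 kinases that act in sequence thus lay on opposite sides of 0, and the probe sets of Mvd differed by more than the probe set SD. Idi1, the isomerase of these isoprene units, gave 1009 and 1269, for a log2 ratio of 0.33 (its other probe set gave 0.51). Fdps, which joins the units to farnesyl pyrophosphate, gave 2278 and 4971, for a log2 ratio of 1.13 or 2.18-fold. Of all measured genes 1.81% had a higher ratio than Fdps.

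The sterol arm also had a median of 0.47, with 9 of 11 genes above 0. Fdft1, squalene synthase and the first enzyme committed to sterols, gave a signal of 3473 in the control pool and 3651 in the L-Lpcat3 KO pool, for a log2 ratio of 0.07 (its other measured probe set gave 0.13). It lay within the probe set SD, between enzymes on either side that were at least 2-fold higher. Sqle, the squalene epoxidase and a flux-controlling step of the pathway, gave 216 and 520, for a log2 ratio of 1.27 or 2.41-fold, the highest of all 28 genes. With the background level at the 75th percentile of all values, above its control signal, the ratio of Sqle was 0.36, which ended its 2-fold call and its place at the top. Only 159 of the 12290 measured genes had a higher ratio than Sqle, which was read by a single probe set. Lss, which closes the rings to lanosterol, gave 611 and 853, for a log2 ratio of 0.48, and its 3 probe sets ran from 0.48 to 0.63. Cyp51, the demethylase of lanosterol, gave 674 and 935, for a log2 ratio of 0.47. Its other probe sets gave 0.89 and at least 0.95, the last a lower bound because the control signal of 83.0 was below background. Tm7sf2, a sterol reductase, gave 3836 and 3542, for a log2 ratio of -0.12.

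Msmo1, Nsdhl and Hsd17b7 encode the enzymes that act together to strip methyl groups from the sterol ring. Msmo1, the oxidase, gave a signal of 1834 in the control pool and 3132 in the L-Lpcat3 KO pool, for a log2 ratio of 0.77 or 1.71-fold. Nsdhl, the decarboxylating dehydrogenase, gave 1509 and 1875, for a log2 ratio of 0.31. Hsd17b7, the ketoreductase, gave 1176 and 1623, for a log2 ratio of 0.47, and its probe sets ran from 0.06 to 0.71. The ratios of this set thus all lay above 0, with the probe sets of Hsd17b7 spread by more than the probe set SD. Ebp, a sterol isomerase, gave 10772 and 9419, for a log2 ratio of -0.19. Sc5d, a sterol desaturase, gave 10417 and 12272, for a log2 ratio of 0.24, and 0.06 and 0.53 on its other probe sets. Dhcr7, the reductase whose product is cholesterol, gave 1481 and 3006, for a log2 ratio of 1.02 or 2.03-fold, just past the 2-fold threshold on its single probe set, and 0.997 with a pseudocount of 50 in place of the floor. Among the synthesis genes alone, ordered by ratio, Sqle, Fdps and Dhcr7 led, followed by Msmo1 and Hmgcs1, and each of these differed from its neighbour in that order by less than the probe set SD.

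**Figure D3:**
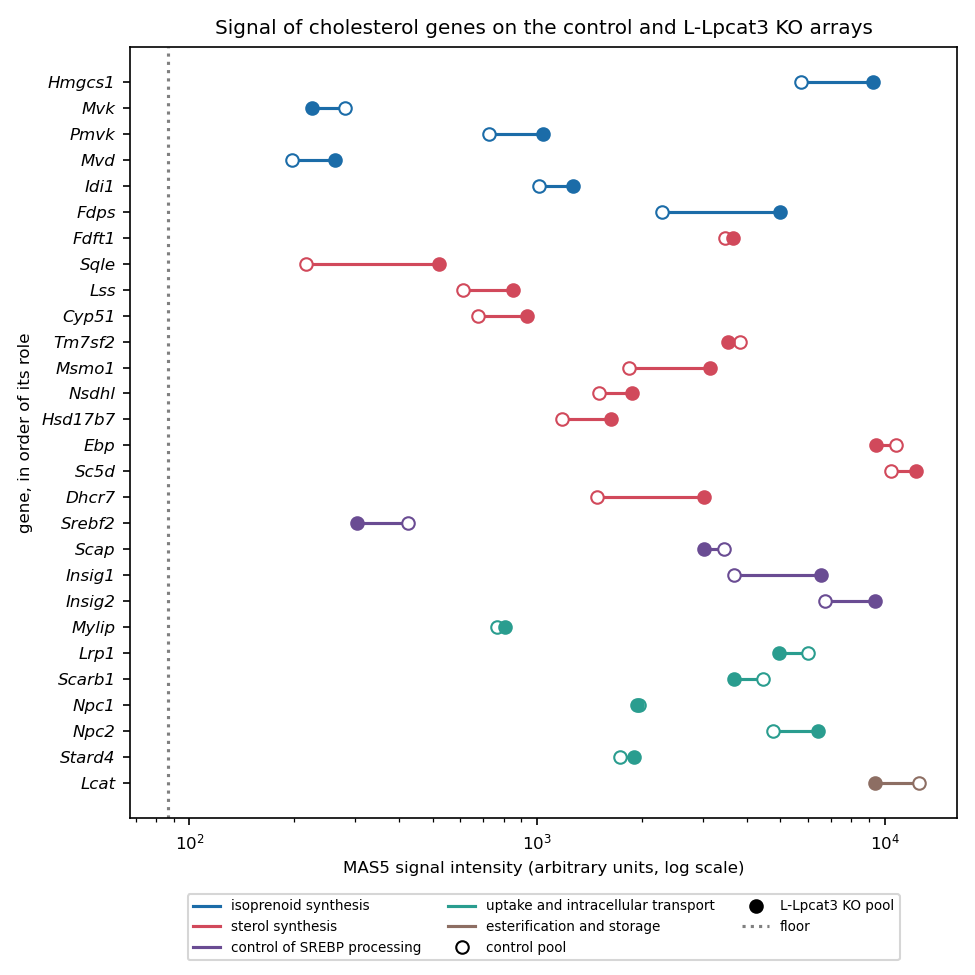
Each line joins the MAS5 signal of 1 gene in the control pool (open circle) to that in the L-Lpcat3 KO pool (filled circle) on a log scale in arbitrary units, coloured by role; the dotted line is the background level of 86.6. Levels of different genes come from different probes and are not comparable. Filled circles lie to the right of open ones for 14 of the 17 synthesis genes.

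The genes that control SREBP cleavage did not share a direction. Insig1, which holds Scap in the endoplasmic reticulum and is itself known as an SREBP target, gave a signal of 3674 in the control pool and 6529 in the L-Lpcat3 KO pool, for a log2 ratio of 0.83 or 1.78-fold on its single probe set. Insig2, its relative in liver, gave 6732 and 9342, for a log2 ratio of 0.47, and its 3 probe sets ran from 0.42 to 0.48. Both Insig genes were thus higher in the L-Lpcat3 KO pool by more than the probe set SD. Srebf2, which encodes the SREBP that mainly drives cholesterol genes, gave 425 and 304, for a log2 ratio of -0.48. This was the lowest ratio of the 28 genes, but the other probe set of Srebf2, at 126 and 120, gave -0.07. Scap gave 3430 and 3020, for a log2 ratio of -0.18. The arrays measure mRNA, and cleavage of SREBP proteins was not analysed here.

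**Figure D4:**
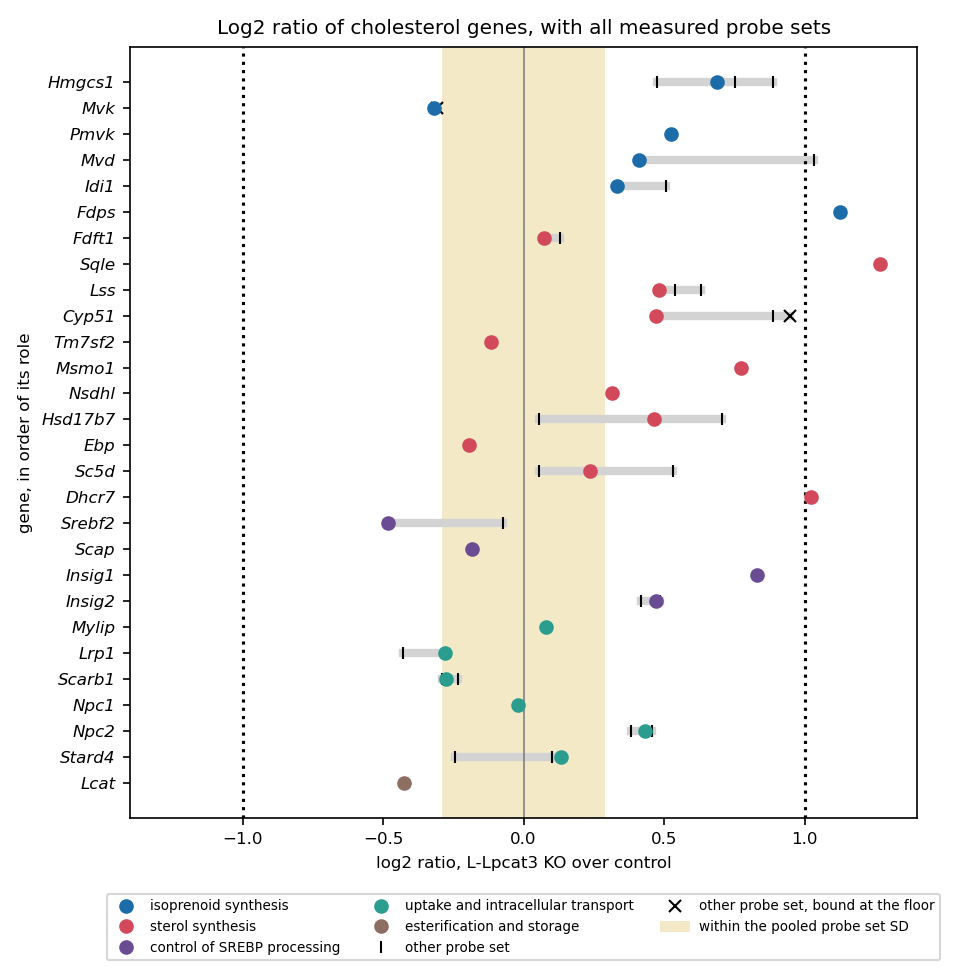
Coloured points mark, for every gene, the log2 ratio (L-Lpcat3 KO over control) of its brightest probe set, black ticks the other measured probe sets (crosses are bounds set by the background level) and grey bars their range; the shaded band is the pooled probe set SD of 0.29 and dotted lines mark 2-fold. Sqle, Fdps and Dhcr7 lie past the right dotted line, while 5 of the 6 uptake and transport genes lie within the band.

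None of the 6 genes of uptake and intracellular transport reached a 1.5-fold difference, a count near the background of 9.07% higher and 3.83% lower over all measured genes, and their median log2 ratio was 0.03. Lrp1, an endocytic receptor for lipoprotein remnants, gave a signal of 6017 in the control pool and 4954 in the L-Lpcat3 KO pool, for a log2 ratio of -0.28 (its other probe set gave -0.43). Scarb1, the receptor through which HDL delivers cholesterol ester, gave 4457 and 3679, for a log2 ratio of -0.28, and its 3 probe sets ran from -0.29 to -0.23. Both receptors were lower in the L-Lpcat3 KO pool on all 5 of their probe sets, by about the probe set SD. Mylip, an E3 ligase that promotes the breakdown of lipoprotein receptors, gave 765 and 808, for a log2 ratio of 0.08. Npc1, the lysosomal membrane protein that exports cholesterol, gave 1959 and 1932, for a log2 ratio of -0.02. Npc2, the soluble lysosomal carrier that hands cholesterol to it, gave 4749 and 6409, for a log2 ratio of 0.43, and over 3 measured probe sets it spanned 0.38 to 0.46. The pair thus differed by more than the probe set SD, Npc2 being the only gene of this group beyond it. Stard4, a cytosolic sterol carrier, gave 1731 and 1898, for a log2 ratio of 0.13, and its probe sets did not share a sign, with -0.24 on the dimmest.

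Of the esterification genes Lcat was measured, the enzyme secreted by the liver that esterifies cholesterol on plasma lipoproteins. It gave 12543 and 9342, for a log2 ratio of -0.43 on its single probe set. It exceeded the probe set SD but not 1.5-fold, and 92.1% of all measured genes had a higher ratio.

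Further genes of the pathway were read from lists of their functions, whose counts stand beside 9.07% of all measured genes higher and 3.83% lower at 1.5-fold, and 2.70% and 0.700% at 2-fold. In lists this short, counts of 0 or 1 lie near those shares and are no result about the lists. Of 8 measured enzymes that feed the pathway, branch from it or assist it, 0 reached 1.5-fold or 2-fold in either direction, and their median log2 ratio was 0.04. They included Lbr, a sterol reductase of the nuclear membrane, at 0.11, and Ggps1, which makes geranylgeranyl pyrophosphate, at 0.24, although its 4 measured probe sets spanned -0.55 to 0.32. Of 11 genes of SREBP processing and sterol-regulated protein turnover 1 was higher and 0 lower at 1.5-fold, 0 reached 2-fold, and the median was -0.02. The 1 higher gene was Tmem97, an SREBP target, at 0.59 (1567 and 2353 on the control and L-Lpcat3 KO arrays), while the proteases of SREBP cleavage, Mbtps1 and Mbtps2, were at 0.09 and -0.02. Of 12 genes of uptake, sterol transport and ester hydrolysis 1 was higher and 1 lower at 1.5-fold, 0 reached 2-fold, and the median was -0.02. In that list Vldlr, a lipoprotein receptor, was at 0.68 (186 and 298 on the control and L-Lpcat3 KO arrays), and its 3 measured probe sets spanned 0.37 to 0.68. Gramd1c, of a family of sterol transfer proteins, was at -0.63 on its single measured probe set. For comparison, 14 genes of fatty acid synthesis and its control, some of which SREBP proteins also control, had a median of 0.35. Of these 9 lay above 0 and 5 below, with ratios from -0.50 to 1.38. Their signals summed to 127725 in the control pool and 133120 in the L-Lpcat3 KO pool. At 1.5-fold 3 were higher and 0 lower, and 2 were at least 2-fold higher, Scd2 (1.38) and Pnpla3 (1.18). Scd2 gave 269 in the control pool and 702 in the L-Lpcat3 KO pool, and Pnpla3 gave 126 and 285. Both control signals were below the 75th percentile of all values, 405. The probe sets of Scd2 gave 0.16 and 1.38, and no test of the difference between these lists and the cholesterol genes was possible.

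Markers of other cell types also differed between these pools. All 12 macrophage markers were above 0, against 51.2% of all measured genes, with a median log2 ratio of 1.21. At least 2-fold higher were 7 of the 12, against 2.70% of all measured genes. The signals of the 12 summed to 15129 in the control pool and 33617 in the L-Lpcat3 KO pool. Of 8 endothelial markers 7 were above 0 (median 0.36, summed signal 6436 and 8347). The 11 hepatocyte markers, 2 of them above 0, summed to 271936 and 245082. Of 3 measured adipocyte markers 2 were at least 2-fold higher, Adipoq and Retn, beside the same 2.70% of all measured genes. Both were below background in control. The summed signal of the 3 markers, 51180 and 39028, came mostly from Car3, a gene that liver also expresses. Within the probe set SD of 0.29 lay 10 of the 11 hepatocyte markers, 2 of the 8 endothelial markers and 0 of the 12 macrophage markers, against 7683 of all 12290 measured genes. In whole liver more cells of a type and more RNA per cell cannot be told apart. The part that these shifts had in the ratios of Npc2, Insig1 and the synthesis genes was not tested. Nor was their part in the ratios of the lower genes, such as Lrp1, Scarb1 and Lcat.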

How the data were processed

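Liver RNA of 2 pools of 5 mice, control and L-Lpcat3 KO, was hybridised to 1 Affymetrix array each. The authors deposited linear signal intensities made with MAS5 (as the submitters' processing notes name it; no version is given), and their methods name GenespringGX. Dropping the highest and lowest 2% of values left a mean of 500.0 for either array, the result of global scaling, which assumes little change in most transcripts. Detection calls were not used here.

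Gene names came from the platform annotation, with symbols updated by gene identifier through RefSeq (GRCm38.p6). Of 45101 probe sets 34958 had 1 symbol; the 932 with several symbols were not used, and the annotation table names no gene for the other 9211. Signals under 86.6, the median of all values, were raised to it. A gene was represented by its brightest probe set (mean log2 signal). Calls were made at 2-fold, with no test. Counting was tested on simulated data.

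The members and lists were chosen with earlier results of these data known. Genes named are all measured members, Lpcat3, and list genes at least 2-fold apart (at most 4 per list). Ass1, Car3, Lbr, Ggps1, Tmem97, Mbtps1, Mbtps2, Vldlr and Gramd1c were chosen after their values were seen. For the macrophage and endothelial lists counts, medians and summed signals are given, and no gene is named. Motifs were searched in the RefSeq promoter table; windows at any listed start were searched first, and the restriction to 1 window per gene was chosen after those values were seen. Alternatives were median centring, quantile normalization, other floors, no floor, a pseudocount of 50, averaging the probe sets of a gene, omitting cross-matching (_x_at and _s_at) probe sets, and thresholds of 1.5-fold and 3-fold. Python 3.11.15, numpy 2.4.6, pandas 2.3.3 and matplotlib 3.10.9 were used.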

Additional observations from a re-analysis of the deposited data

How the results depend on the processing

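Of 222 member ratios recomputed under 8 alternatives, 217 stayed within the probe set SD of 0.29 of the value reported, 5 moved beyond it, and no called gene changed sign. Much of this was fixed in advance. All 28 genes were above background on both arrays, so the 25th percentile level and no floor could not change a ratio. Median centring shifted every ratio by 0.009, and averaging probe sets could not move the 13 genes with 1 measured probe set. With a background level at the 75th percentile of all values (405), Sqle fell to a log2 ratio of 0.36, since its control signal lay below that level, and Srebf2 moved to -0.07. With the mean of probe sets Mvd was at 0.72 and Cyp51 at 0.77, and without probe sets that can match several transcripts Hsd17b7 was at 0.06. The sign of Stard4 turned with the mean of probe sets (-0.003), and with it the median of uptake and transport (-0.01). The count of 3 cholesterol genes at least 2-fold higher became 2 with the level at the 75th percentile, which lost Sqle, and 2 with a pseudocount of 50 in place of a floor, which left Dhcr7 at 0.997; it was 6 at 1.5-fold and 0 at 3-fold. The count of lower cholesterol genes was 0 in every one of these settings. The synthesis median ran from 0.41 to 0.52. The sterol arm median was 0.36 with the level at the 75th percentile and 0.31 without probe sets that can match several transcripts, and the isoprenoid median was 0.61 with the mean of probe sets.

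The counts over all genes, 332 higher and 86 lower, depended on how dim genes were treated. They were 1132 and 479 with the level at the 25th percentile, 88 and 25 at the 75th percentile, and 2230 and 1183 with no floor, where genes near background enter. They were 1115 and 471 at 1.5-fold and 55 and 11 at 3-fold. No paired analysis was possible because each genotype has 1 pool. The control signals of Sqle (216), Mvk (280) and Mvd (197) were the closest of the cholesterol genes to the background level of 86.6.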
